A study of Mus musculus with 14 samples.

Results

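Liver sinusoidal endothelial cells (LSEC) were compared with lung endothelial cells within 1 genotype, in mice that carried MxCre together with floxed alleles of 3 forkhead genes. The comparison took the 3 LSEC samples and the 2 lung samples labelled experimental, which is 5 of the 14 samples of the series, each hybridised to 1 Affymetrix array that covers the mouse genome. In the labels the genotype is MxCre+ with L/L alleles of Fk1, of Fk2 and of Afx, on an FVBn background. These stand for Foxo1, Foxo3 and Foxo4 under earlier names. Control mice had the same floxed alleles without MxCre, and gave 3 LSEC and 2 lung endothelial samples that are set beside the Cre+ values. Both genotypes therefore carry all floxed alleles, and what differs is the Cre transgene, whose promoter responds to interferon and is not restricted to endothelium. The induction of Cre, the isolation of the cells and the age of the mice are not described in the labels, which also do not state that replicates are separate animals, and the p-values therefore measure only the spread between these samples.

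FoxO proteins are transcription factors that insulin and growth factor signalling keep out of the nucleus. In endothelium they are known for restraining growth and for acting on genes of vessel remodelling. LSEC form the fenestrated wall of the liver sinusoid, lack a continuous basement membrane and clear waste molecules through scavenger receptors, whereas lung capillary endothelium is continuous and lies on a basement membrane beside the alveolar epithelium.

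All levels below are log2 values after quantile normalization of the 14 arrays, differences are Cre+ LSEC minus Cre+ lung unless control is named, and p-values are from limma, adjusted over 13035 genes. The 14 arrays include 2 Cre+ and 2 control thymus samples. These enter the normalization, the choice of probe set, the filter and the estimate of spread, but not the means compared. A gene was tested if its mean in LSEC, lung or thymus reached a filter limit of 6.87, so a gene could pass through thymus alone. A tested gene was called at an adjusted p under 0.05 with at least a 2-fold difference. Levels below that limit lie in the dim range of the array, and no detection calls were used, so folds against such a level are uncertain and are mostly left out. Arrays of Cre+ LSEC correlated with each other at 0.970 to 0.977 and the pair of Cre+ lung arrays at 0.983, while arrays of different beds correlated at 0.808 to 0.838. The median SD of a gene was 0.13 over the Cre+ LSEC arrays and 0.08 over the Cre+ lung arrays. The level of one probe set cannot be set against that of another, since their sequences bind with different strength.

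The floxed genes were not equally low in both beds. The Foxo1 probe set 1416983 read 4.36, 4.58 and 5.44 in Cre+ LSEC, against 7.15 and 6.85 in Cre+ lung. It read 8.58, 8.48 and 8.0 in control LSEC, against 8.36 and 8.21 in control lung. Both Cre+ groups thus lay below every control array, and Cre+ LSEC lay below Cre+ lung without overlap. The Cre+ bed difference on this probe set was -2.20 (SE 0.30, adjusted p = 0.000583 over all named probe sets), and that of control was 0.07 (SE 0.30, adjusted p = 0.897). The difference between these 2 values, -2.27, did not pass (adjusted p = 0.119).

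A second Foxo1 probe set, 1416982, read 6.94, 6.753 and 6.61 in Cre+ LSEC, against 7.84 and 7.46 in Cre+ lung, a difference of -0.88 (adjusted p = 0.00447). Probe set 1416981, which stands for the gene in the tests below because it is the brightest, differed by only -0.39. Foxo4 read 4.69, 5.38 and 4.86 in Cre+ LSEC, against 6.72 and 6.02 in Cre+ lung, and was called lower (-1.39, SE 0.23, adjusted p = 0.000513), with all 5 arrays under the filter limit. The control bed difference of Foxo4 was -0.35, and the genotypes did not differ in it at the threshold (adjusted p = 0.261), both in the test over genes. A second Foxo4 probe set, 1422149, which the filter left out, pointed the other way between the Cre+ beds, at 0.42. Foxo3 probe set 1434832 read 8.57, 8.47 and 8.74 in Cre+ LSEC, against 8.66 and 8.67 in Cre+ lung, and the beds overlapped. On the other Foxo3 probe sets above the limit they did not overlap, with Cre+ LSEC higher by 0.36 on 1434831 (adjusted p = 0.0552) and by 0.54 on 1450236 (adjusted p = 0.0306). Control LSEC were higher than control lung by more, at 1.25 on 1434831 (adjusted p = 7.53e-05) and 0.84 on 1450236 (0.00331). On 1434832 the control bed difference was 0.56 (0.00188). The differences between genotypes, -0.89, -0.30 and -0.63 in this order, did not pass (adjusted p = 0.126, 0.772 and 0.162). Where these probe sets lie relative to the floxed exons was not analysed here, so a retained signal does not measure retained protein.

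**Figure D1:**
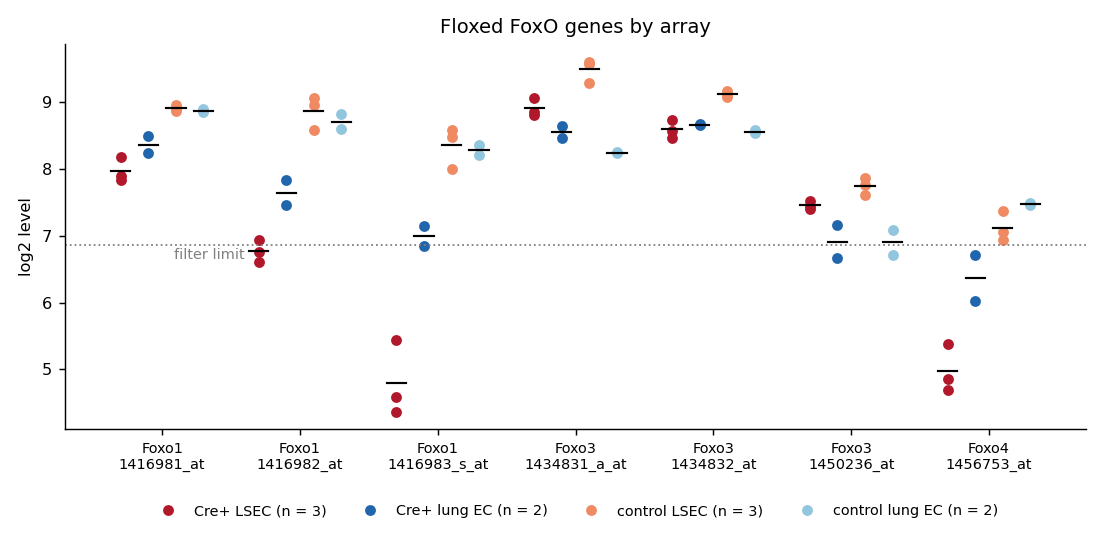
Log2 level of each FoxO probe set above the filter limit, with 1 point per array, a black line for the group mean and a dotted line at the limit of 6.87. For Foxo1 1416983 and Foxo4 the Cre+ LSEC arrays lie lowest, with the Cre+ lung arrays between them and the controls, and no Foxo3 probe set is lower on average in Cre+ lung than in control lung.

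Between the Cre+ beds 1369 genes were called, 10.5% of those tested. Of these, 479 were higher in Cre+ LSEC (3.67%) and 890 were lower (6.83%). Each count of list members below stands beside these shares, and in controls beside 4.28% higher and 6.99% lower. For the test of the difference between genotypes the share over all genes was 0.614%. Large differences lay mostly on the lung side: 21 called genes were at least 8-fold higher in Cre+ LSEC, and 142 were at least 8-fold lower. In 551 called genes, 40.2%, the mean of the lower bed was under the filter limit. The arrays of the 2 beds did not overlap in 1363 of the 1369, beside 65.3% of all genes tested. Without a fold limit 5748 genes passed the test, 44.1%, and without one 6011 passed in controls, 46.1%. Most of what passes is thus under 2-fold.

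The genes highest in Cre+ LSEC relative to Cre+ lung included products that LSEC are known for. Edn1, the precursor of the vasoconstrictor endothelin-1, read 11.71, 11.73 and 11.88 in Cre+ LSEC, against 6.37 and 6.80 in Cre+ lung (5.19, SE 0.22, adjusted p = 3.85e-08). Oit3, a secreted protein used as an LSEC marker, read 10.59, 9.44 and 10.81 in Cre+ LSEC, against 5.10 and 5.22 in Cre+ lung (5.12, adjusted p = 1.54e-06). Bmp6, the ligand through which liver endothelium controls hepcidin and iron balance, read 10.98, 10.84 and 11.36 in Cre+ LSEC, against 6.55 and 6.87 in Cre+ lung (4.35, adjusted p = 3.85e-08). In each of the 3 genes every Cre+ LSEC array lay above every Cre+ lung array by more than the range within either bed, and the lung mean was under the filter limit.

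Stab2, the hyaluronan scavenger receptor stabilin-2, read 10.63, 9.85 and 11.05 in Cre+ LSEC, against 6.11 and 6.31 in Cre+ lung (4.30). The transcription factor Gata4, which specifies sinusoidal identity in mouse liver endothelium, read 8.93, 8.80 and 9.27 in Cre+ LSEC, against 5.23 and 4.97 in Cre+ lung (3.90, adjusted p = 6.8e-07). F8, clotting factor VIII, which liver endothelium secretes, read 8.14, 7.30 and 8.31 in Cre+ LSEC, against 4.94 and 4.43 in Cre+ lung (3.23). Sox17, an endothelial transcription factor, was bright in both beds, at 11.30, 11.30 and 11.39 in Cre+ LSEC, against 8.02 and 8.02 in Cre+ lung, which is 9.94-fold (adjusted p = 1.65e-07). The remaining genes among the 15 largest were Apoa1, Cxcl2, Cd55, Car8, Slc12a5, Hspa1a, Tpsab1 and Hspa1b, with differences from 3.75 to 5.39.

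Markers of other cells stand beside some of these. Apoa1, a hepatocyte lipoprotein gene, read 8.42, 8.51 and 8.34 in Cre+ LSEC, against 3.27 and 2.79 in Cre+ lung, on 1 probe set only. The hepatocyte list had 10 members on the array and 4 tested, and Alb read 6.61 on average in Cre+ LSEC and 6.18 in Cre+ lung, under the limit in both. Tpsab1, a mast cell tryptase, read 9.38, 10.10 and 7.20 in Cre+ LSEC, against 4.64 and 4.70 in Cre+ lung, and its control bed difference was 0.17. The difference between genotypes, 4.06, did not pass (adjusted p = 0.0995). Of 7 tested mast cell and basophil markers 3 were called higher and 1 lower in Cre+ LSEC, and the lower one was Mcpt8, a basophil protease (-2.99, adjusted p = 5.47e-05). The heat shock genes Hspa1a and Hspa1b, which respond to cell handling, differed by 4.26 and 3.75 in Cre+ cells and by 4.73 and 4.22 in controls. Of the 20 cell handling genes 4 were called higher and 6 lower in Cre+ LSEC, with a list mean of 9.20 to 9.41 in Cre+ LSEC and 9.24 to 9.25 in Cre+ lung. In controls 5 were called higher and 2 lower, with a list mean of 9.83 to 10.25 in LSEC and 9.30 to 9.37 in lung. Of these genes, Egr1 and Btg2, which respond early to stimulation, passed the test of the difference between genotypes (-1.90 and -1.02, adjusted p = 0.0443 and 0.0398), each in 1 of the 10 fits that left out an array. The part of hepatocyte RNA, mast cells or handling in the result was not tested.

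The genes lowest in Cre+ LSEC relative to Cre+ lung were led by stromal, matrix and airway genes. Sparcl1, a matricellular protein, read 4.15, 2.68 and 4.08 in Cre+ LSEC, against 12.32 and 12.04 in Cre+ lung (-8.54, SE 0.35, adjusted p = 3.28e-08). Scgb1a1, the secretoglobin of airway club cells, read 4.10, 2.20 and 3.84 in Cre+ LSEC, against 12.32 and 11.33 in Cre+ lung (-8.44). Mgp, matrix Gla protein, an inhibitor of calcification, read 7.037, 6.71 and 7.06 in Cre+ LSEC, against 13.74 and 13.64 in Cre+ lung (-6.76, adjusted p = 3.46e-09). Its lung arrays lie at the top of the scale, where quantile normalization sets the value by rank (13.74 in both control lung arrays), so no fold is given. Sparcl1 and Scgb1a1 lay far under the filter limit in Cre+ LSEC, and all 3 genes were bright in lung.

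The collagen gene Col1a1 differed by -7.29 and Col15a1 by -5.80. The collagen cross-linking enzyme gene Loxl1 differed by -7.39, and Pdgfrb, the receptor that marks mural cells and fibroblasts, by -5.95. Serping1, the C1 inhibitor of the complement system, read 5.70, 5.69 and 5.72 in Cre+ LSEC, against 12.09 and 11.95 in Cre+ lung (-6.32, adjusted p = 8.7e-10). Medag, Mrc2, Ms4a4d, Gzme, Osr1, G0s2 and Actrt3 completed the 15, with differences from -8.30 to -6.01. Gzme was listed at 0.00 in 1 Cre+ LSEC array. All 15 were also called lower in control LSEC.

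**Figure D2:**
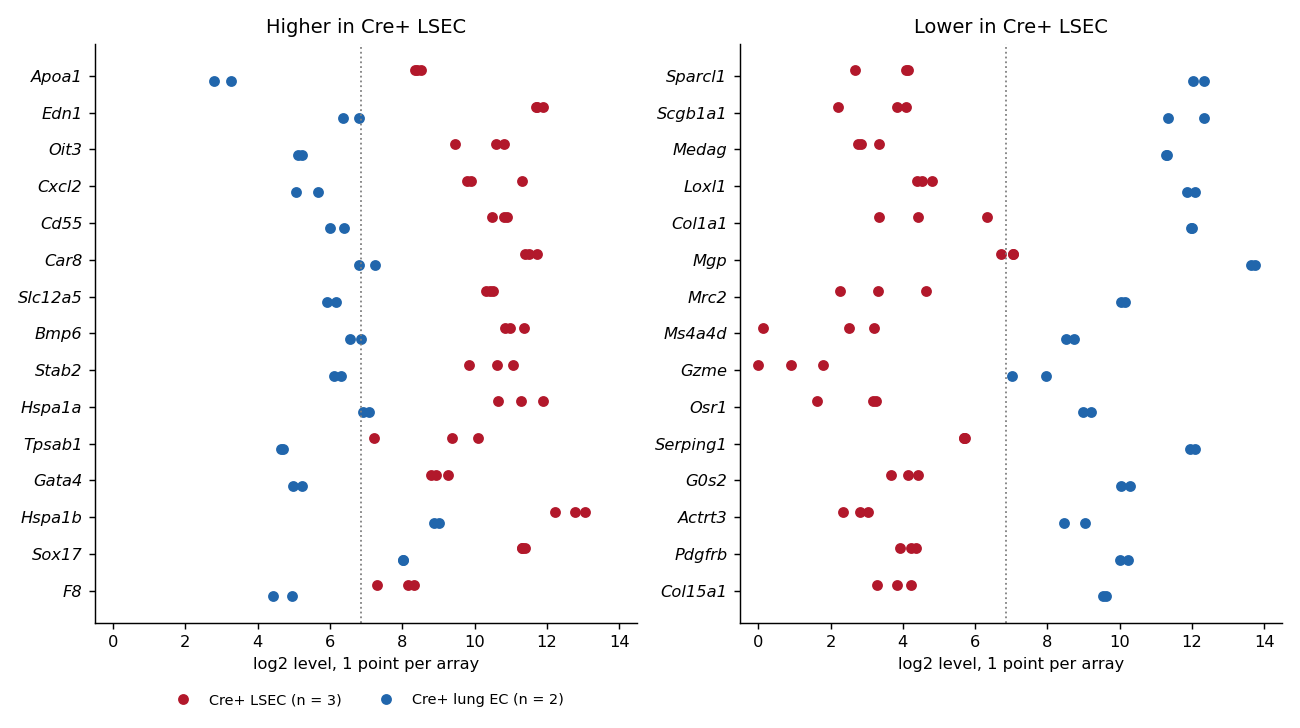
Log2 level in each Cre+ array of the 15 genes most above and the 15 most below Cre+ lung in Cre+ LSEC, in order of the difference, with a dotted line at the filter limit of 6.87. The 30 genes were chosen among those whose arrays do not overlap between the 2 beds. Mgp, Hspa1b and Sox17 are examples in which the lower bed is also near or above the limit.

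The lung fraction carried markers of cells other than endothelium. Of 12 tested lung epithelial markers 9 were called lower in Cre+ LSEC and none higher, beside 6.83% and 3.67% of all genes, and the mean level of the list was 6.65 to 6.71 in Cre+ LSEC and 9.58 to 9.75 in Cre+ lung. Sftpc, surfactant protein C of alveolar type II cells, read 6.93, 6.73 and 6.93 in Cre+ LSEC, against 12.59 and 11.97 in Cre+ lung. Of 18 stellate, fibroblast and mural markers 12 were called lower, with list means of 6.71 to 7.13 in Cre+ LSEC and 9.60 to 9.71 in Cre+ lung. The same lists stood at 9.56 to 9.68 and 9.68 to 9.71 in control lung. In such bulk samples fewer cells of a type and less RNA per cell cannot be told apart, and the part of these cells in the genes called lower was not tested.

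Leukocyte markers varied within the LSEC group. The 15 tested macrophage and Kupffer cell markers averaged 10.17, 9.18 and 8.90 in Cre+ LSEC replicates 1, 2 and 3, against 9.75 and 9.88 in Cre+ lung. Of them 2 were called higher and 4 lower. C1qa, a complement gene of tissue macrophages, read 10.24, 8.36 and 7.42 in Cre+ LSEC, against 10.78 and 11.08 in Cre+ lung, and its call was lost without any 1 of 4 arrays (without Cre+ lung replicate 2, -2.11, adjusted p = 0.117; without replicate 1, 0.0867; without Cre+ LSEC replicate 2, 0.0668; without replicate 3, 0.0842). Cd5l, a Kupffer cell gene, was higher in Cre+ LSEC by 2.22, but by 1.76 without Cre+ lung replicate 1 (adjusted p = 0.153). Mast cell and basophil markers averaged 7.38 to 8.12 in Cre+ LSEC and 6.79 to 6.85 in Cre+ lung, where control LSEC stood at 6.57 to 6.81 and control lung at 6.6 to 6.88. Leaving out each of the 5 arrays in turn gave between 1268 and 1445 called genes in all.

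**Figure D3:**
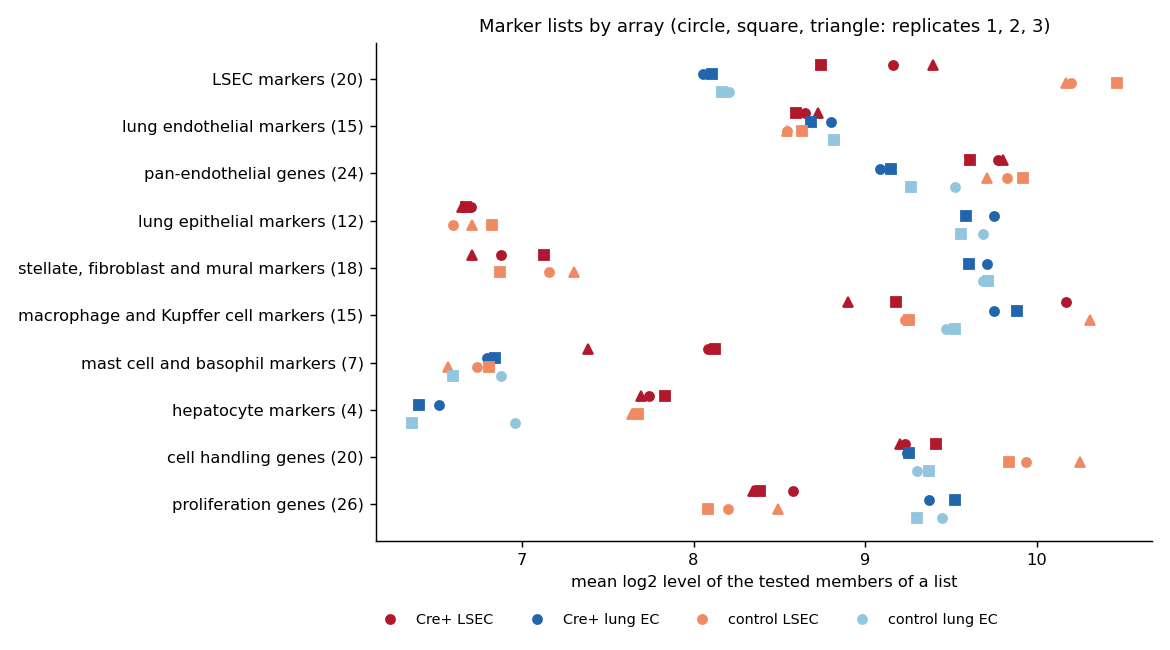
Mean log2 level of the tested members of 10 marker and process lists in each array, with the number of tested members in brackets and the replicate shown by the symbol. The lung epithelial and fibroblast lists separate the beds by over 2 units in both genotypes, the LSEC list separates control LSEC from lung more than Cre+ LSEC, and the macrophage list varies within the LSEC groups.

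Sinusoidal markers were called in both directions between the Cre+ beds. Of 20 tested LSEC markers 7 were called higher in Cre+ LSEC and 4 were called lower, with a median difference of 0.62 beside 0.06 over all genes. In controls 12 of the 20 were called higher and none lower, with a median of 1.90. Over all genes the shares called higher and lower were 3.67% and 6.83% in Cre+ cells, and 4.28% and 6.99% in controls. The list mean was 9.16, 8.74 and 9.39 in Cre+ LSEC, against 8.05 and 8.11 in Cre+ lung, and 10.20, 10.47 and 10.17 in control LSEC, against 8.20 and 8.17 in control lung. The markers called higher in Cre+ LSEC were Stab2, Oit3, Gata4, F8, Dnase1l3, Ehd3 and Plxnc1, and those called lower were Lyve1, Rspo3, Wnt2 and Mrc1.

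Lyve1, which binds hyaluronan on sinusoids and lymphatic vessels, read 8.56, 7.99 and 8.58 in Cre+ LSEC, against 10.77 and 11.33 in Cre+ lung. In controls it read 11.69, 12.08 and 11.73 in LSEC, against 11.26 and 11.03 in lung. The arrays do not overlap in either genotype, and the order of the beds is opposite. Its Cre+ bed difference was -2.67 (SE 0.22, adjusted p = 4.38e-06), which is 6.39-fold lower in Cre+ LSEC. It differed from the control value of 0.69 by -3.37 (SE 0.32, adjusted p = 0.00218).

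Wnt2, a Wnt ligand that LSEC secrete to hepatocytes, read 7.03, 7.29 and 7.47 in Cre+ LSEC, against 8.91 and 8.83 in Cre+ lung (-1.60), while the control bed difference was -0.19. The genotypes differed by -1.41 (adjusted p = 0.0304). Rspo3, which enhances Wnt signalling, read 6.85, 6.58 and 7.36 in Cre+ LSEC, against 8.64 and 8.81 in Cre+ lung (-1.79). That call was lost without Cre+ lung replicate 1 (adjusted p = 0.0626) or 2 (adjusted p = 0.0786), and the difference between genotypes did not pass (adjusted p = 0.415). Clec4g and Fcgr2b, a lectin and an Fc receptor of sinusoids, differed by 0.57 and 0.21 in Cre+ cells and by 2.40 and 2.25 in controls. Lyve1, Wnt2, Clec4g and Fcgr2b were the 4 list members that passed the test of the difference between genotypes, beside 0.614% of all genes. Lyve1 passed in all 10 fits that left out an array, Clec4g in 8, Fcgr2b in 6 and Wnt2 in 5, and all but Lyve1 were lost without Cre+ or control lung replicate 1.

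Lung endothelial markers did not fall on one side. Of 15 tested, 5 were called higher in Cre+ LSEC and 5 lower. Ace, angiotensin-converting enzyme of the pulmonary capillary, read 9.03, 9.0 and 9.71 in Cre+ LSEC, against 11.62 and 10.97 in Cre+ lung, and was 4.14-fold lower (adjusted p = 9.96e-05). Scn7a, a sodium channel gene, differed by -2.39. Ednrb, the endothelin B receptor, a capillary marker in mouse lung, was nevertheless higher in Cre+ LSEC, at 12.43, 12.37 and 12.68, against 9.55 and 9.61 in Cre+ lung, which is 7.54-fold (adjusted p = 6.5e-07). Slco2a1, a prostaglandin transporter, was higher by 1.43 in Cre+ cells and by 0.30 in controls, and this difference between genotypes did not pass (adjusted p = 0.261).

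Pan-endothelial genes were more often called higher than lower in Cre+ LSEC. Of 24 tested, 12 were called higher and 3 lower, with a median of 0.95, beside 10 and 4 with a median of 0.68 in controls. Cdh5, the cadherin of endothelial adherens junctions, read 12.11, 12.12 and 12.21 in Cre+ LSEC, against 10.44 and 10.68 in Cre+ lung, a 3.00-fold difference. A second Cdh5 probe set stood at only 0.11. Kdr, the main VEGF receptor, was 3.64-fold higher and Mmrn2, an endothelial matrix protein, was 5.40-fold higher. Pecam1 differed by 0.16 and was not called. The 3 lower genes were Cd34, a sialomucin that LSEC are known to lack (5.53, 5.51 and 5.48 in Cre+ LSEC, against 9.40 and 9.14 in Cre+ lung), the tight junction gene Cldn5 (-3.49) and Sox18 (-1.35).

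Among clearance genes, Scarf1, a scavenger receptor for modified lipoproteins, was higher in Cre+ LSEC by 3.03, while Lrp1, an endocytic receptor, and Colec12, a scavenger collectin, were lower (differences of -2.66 and -2.29). Of 16 tested scavenger and lectin receptors 2 were called higher and 5 lower in Cre+ cells, against 6 and 4 in controls. Of 23 endocytosis and lysosome genes 3 were called higher and none lower. These were Ehd3, an endosomal recycling ATPase (10.96, 10.58 and 11.28 in Cre+ LSEC, against 8.14 and 8.26 in Cre+ lung), and the lysosomal enzyme genes Gla (2.41-fold) and Hexa (2.39-fold). Of 7 caveolar genes the coat proteins Cavin1 and Cavin3 and the ATPase Ehd2 were called lower, with differences of -1.62, -2.07 and -3.19, and Cav2 was called higher by 1.18. Another Ehd2 probe set pointed the opposite way, at 1.43, while the rest above the limit stood at -3.17, -2.28 and -3.04. Another Cav2 probe set stood at -0.13.

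Signalling ligands and receptors were called in both directions. For the BMP and TGF-beta pathway 5 of 30 tested members were called higher, among them Bmp6, the inhibitory Smad6 (6.91-fold) and the co-receptor endoglin, Eng (3.76-fold). The 9 called lower included Ltbp1, which binds latent TGF-beta in the matrix (-4.46), Tgfb3 (-4.39) and Inhba, an activin subunit (-2.21). In the Wnt pathway the receptor Fzd4 was higher (10.46, 10.29 and 10.61 in Cre+ LSEC, against 8.54 and 8.31 in Cre+ lung), and 6 of 23 members were lower, including Fzd7 (-2.36) and the secreted antagonists Frzb (-2.06) and Sfrp1 (-1.95). The other Sfrp1 probe sets above the limit stood at -1.10, -2.97, -3.78 and 0.39. Notch members went both ways, with Jag1, a ligand, 5.84-fold higher, Notch1 2.04-fold higher and Notch2 lower, at -1.68, while a second Notch2 probe set stood at 0.15. The other Jag1 probe sets stood at 0.03 and 1.81.

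Of 27 VEGF, angiopoietin and apelin genes 6 were called higher and 6 lower. Pgf, placental growth factor, read 9.68, 10.17 and 9.65 in Cre+ LSEC, against 6.64 and 7.0 in Cre+ lung. Angptl4, an inhibitor of lipoprotein lipase, was 5.19-fold lower and Ramp3, a receptor partner for adrenomedullin, 3.95-fold lower. Lpl, lipoprotein lipase, was lower, at -2.02. Of 31 guidance genes 6 were called in each direction: the netrin gene Ntn4 and the semaphorin receptor Plxnc1 were higher by 2.38 and 1.89, and Slit3 and Sema3a were lower, at -5.39 and -3.63.

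Of 43 endothelial transcription factors 9 were called higher and 6 lower. Tfec, a MiT family factor, read 10.83, 10.47 and 10.81 in Cre+ LSEC, against 7.55 and 7.83 in Cre+ lung (8.07-fold, adjusted p = 5.94e-08). Tbx4 and Tbx2, T-box factors of the developing lung, were lower, at -4.38 and -2.47. Of 18 tested Hox genes 4 were called lower and none higher, including Hoxc5 (-2.61), Hoxb6 (-2.13) and Hoxb5 (-2.02). Every LSEC and lung array of Hoxc5 lay under the filter limit, in both genotypes, and it passed the filter through thymus alone. Hoxb6 and Hoxb5 lay under the limit in Cre+ LSEC.

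For vessel tone and clotting, 8 of 24 vascular tone genes were called higher and 7 lower. Ptgis, prostacyclin synthase, was lower, at -3.63, and S1pr1, the sphingosine phosphate receptor, was 3.18-fold higher. Procr, the protein C receptor, read 11.67, 11.91 and 11.85 in Cre+ LSEC, against 8.85 and 9.19 in Cre+ lung (6.92-fold), and Entpd1, which degrades extracellular ATP and ADP, was 3.50-fold higher. F3, tissue factor, was lower, at -1.98, a call lost without Cre+ LSEC replicate 1 (adjusted p = 0.0716) or 3 (0.0791), or without Cre+ lung replicate 1 (0.0596) or 2 (0.142). Of 23 leukocyte adhesion and chemokine genes 8 were called higher and 4 lower, with Cxcl1, a neutrophil chemoattractant, 4.93-fold higher and the adhesion gene Alcam 4.57-fold lower.

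Matrix, cell cycle and drug-metabolising genes were more often called lower than higher in Cre+ LSEC. Of 43 basement membrane and matrix genes 21 were called lower and 1 higher, with a median of -0.98 in Cre+ cells and -0.87 in controls. Of 26 proliferation genes 13 were called lower and none higher, among them Mki67 (7.98, 7.56 and 7.61 in Cre+ LSEC, against 9.82 and 9.74 in Cre+ lung), Top2a (4.36-fold) and the cyclin gene Ccnb2 (-2.69). The licensing genes Mcm2 and Mcm3 differed by 0.31 and 0.46 and were not called. Of 20 xenobiotic enzymes 2 were called higher and 8 lower, led by Aldh1a1, a retinaldehyde dehydrogenase (-5.77), and the flavin monooxygenase Fmo2 (7.29, 7.45 and 7.12 in Cre+ LSEC, against 12.08 and 11.999 in Cre+ lung), while Cyp1a1 was higher by 2.77. The high lung levels of epithelial and fibroblast markers given above stand beside these counts too.

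**Figure D4:**
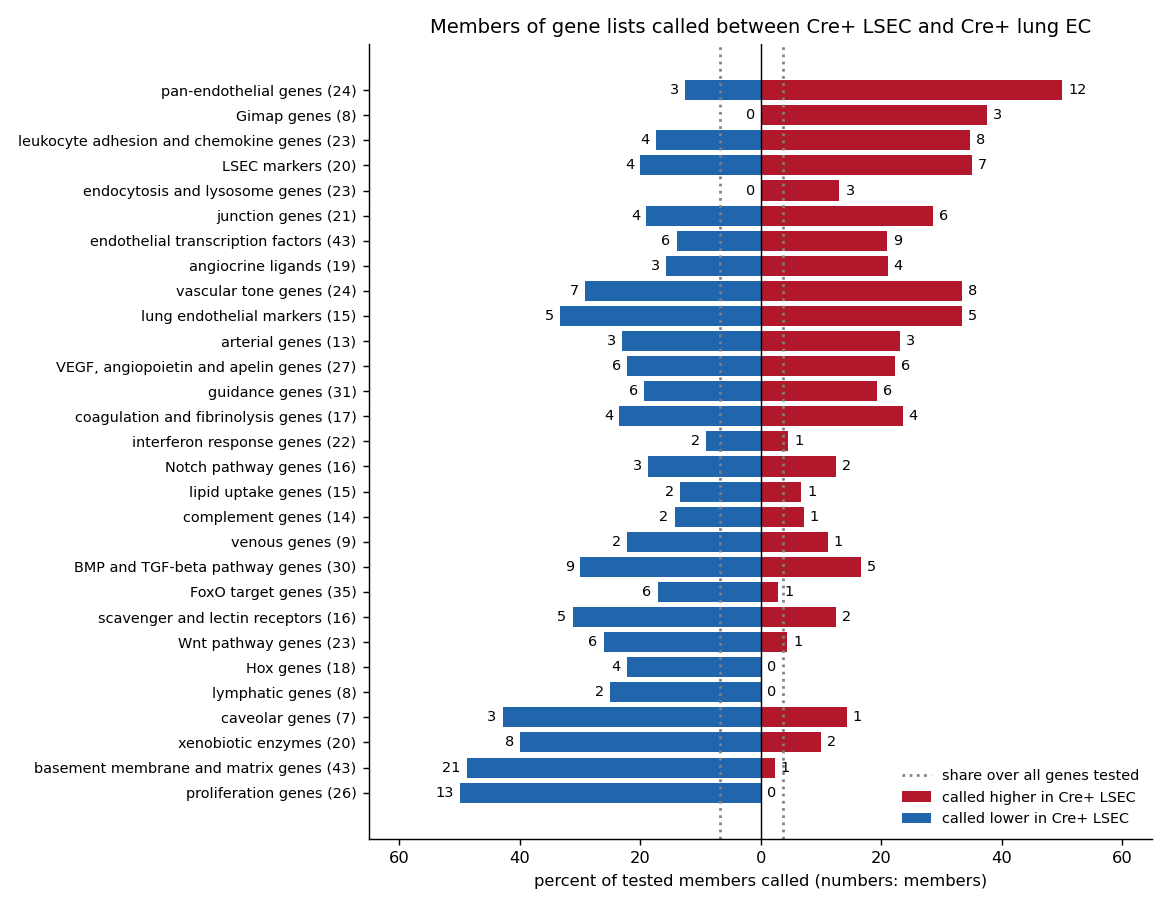
Percent of the tested members of each bed and role list that were called higher (right, red) or lower (left, blue) in Cre+ LSEC, with the member counts beside the bars, the number tested in brackets and dotted lines at 3.67% and 6.83%, the shares over all genes. Pan-endothelial genes have 12 of 24 members higher, and proliferation genes have 13 of 26 lower.

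Which bed differences remain in the Cre+ genotype was examined gene by gene against the controls, whose means use none of the same arrays. Controls had 1469 genes called, 11.3% of those tested. Of the genes called in either genotype, 1058 were called in both with the same direction, which is 77.3% of the Cre+ calls and 72.0% of the control calls. Of 558 genes (4.28%) called higher in control LSEC 341 were called higher in Cre+ LSEC, 61.1%, and 549 kept the sign. Of 911 (6.99%) called lower in control LSEC 717 were called lower in Cre+ LSEC, 78.7%, and 901 kept the sign. Across genes, which are not independent replicates, the 2 bed differences correlated at 0.907.

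The test of the difference itself passed for 80 genes, 0.614%, of which 37 (0.284%) were more positive and 43 (0.33%) more negative in Cre+ than in control. At an unadjusted p under 0.05 there were 1247. Of 310 genes called only in Cre+ cells 20 passed this test, and of 410 called only in controls 27 passed, so most genes called in 1 genotype alone were not shown to differ between genotypes. The count depended on single lung arrays. It was 4 without Cre+ lung replicate 1, 18 without Cre+ lung replicate 2, 5 without control lung replicate 1 and 29 without control lung replicate 2. It was 44, 33 and 48 without control LSEC replicate 1, 2 and 3. All 80 kept their sign in each of the 10 fits that left out an array, and Lyve1, Mmd and Cd9 were the 3 of the 16 largest that passed in every one. Outside those 16 only Cdkn2b did so, with a bed difference of -2.35 in Cre+ and -0.45 in control cells.

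**Figure D5:**
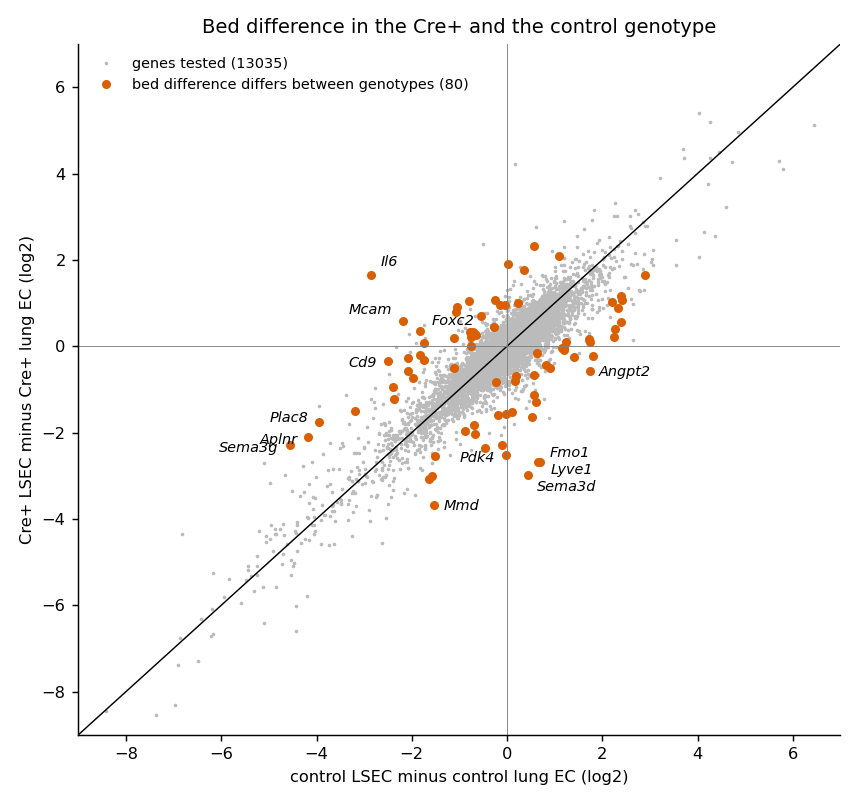
Bed difference in Cre+ cells (vertical) against that in control cells (horizontal), in log2 units, with 1 grey point per gene tested, orange points for the 80 genes whose bed difference differed between genotypes, and a line at equal values. Most genes lie along the line, and Il6 is the gene called in opposite directions.

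Of the genes more negative in Cre+ cells, several were bright in all groups but Cre+ LSEC. Mmd, a membrane protein gene named for its link to macrophage differentiation, read 7.87, 7.77 and 8.08 in Cre+ LSEC, against 11.57 and 11.58 in Cre+ lung. In controls it read 10.25, 10.25 and 10.04 in LSEC, against 11.62 and 11.80 in lung. The bed difference was -3.67 in Cre+ and -1.53 in control cells, and the genotypes differed by -2.14 (SE 0.18, adjusted p = 0.0011).

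Pdk4, the kinase that shuts pyruvate dehydrogenase and a known FoxO target, read 6.99, 6.96 and 7.34 in Cre+ LSEC, against 9.87 and 9.36 in Cre+ lung. In controls it read 9.97, 10.11 and 9.96 in LSEC, against 10.03 and 10.06 in lung. It was 5.74-fold lower in Cre+ LSEC than in Cre+ lung, the control bed difference was -0.03, and the genotypes differed by -2.49 (adjusted p = 0.0105). This was lost without Cre+ or control lung replicate 1 (highest adjusted p = 0.07).

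Sema3d, a secreted semaphorin, read 3.73, 5.30 and 4.37 in Cre+ LSEC, against 7.65 and 7.25 in Cre+ lung, and 7.62, 7.56 and 7.70 in control LSEC, against 7.12 and 7.26 in control lung (genotype difference -3.42, adjusted p = 0.0349). Fmo1, a flavin monooxygenase, showed a like order, with -2.69 in Cre+ and 0.66 in control cells (-3.35, adjusted p = 0.0139). Slc10a6, a steroid sulfate transporter, and Arg2, the mitochondrial arginase, were lower in Cre+ LSEC, with bed differences of -2.28 and -1.64, against -0.11 and 0.51 in controls (adjusted p = 0.0071 and 0.0411). Sema3d passed in 2 of the 10 leave-one-out fits, Arg2 in 1, and Fmo1 and Slc10a6 in 8.

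Angpt2, the ligand that destabilises vessels through Tie2 and a FoxO target, behaved otherwise. It read 7.95, 7.87 and 7.60 in Cre+ LSEC, against 8.13 and 8.63 in Cre+ lung, and 11.42, 12.04 and 11.47 in control LSEC, against 10.20 and 9.61 in control lung. Both Cre+ groups lay below both control groups. The bed difference was -0.57 in Cre+ cells, where it was not called, and 1.73 in controls, and the genotypes differed by -2.31 (adjusted p = 0.0111). It was lost without Cre+ lung replicate 1 or 2 (highest adjusted p = 0.0574).

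Of 35 tested FoxO target genes 1 was called higher and 6 were called lower in Cre+ LSEC, with a median of -0.29, against 4 and 4 with a median of 0.07 in controls. Over all genes the shares were 3.67% and 6.83% in Cre+ cells, and 4.28% and 6.99% in controls. Pdk4, Angpt2, Gadd45a, a stress-induced growth arrest gene, and Spry2, an inhibitor of receptor tyrosine kinase signalling, were the 4 that passed the genotype test. The share of all genes that passed it was 0.614%. Spry2 read 7.74, 8.24 and 7.86 in Cre+ LSEC, against 9.998 and 9.98 in Cre+ lung (-2.04), while the control bed difference was -0.66 (genotype difference -1.38, adjusted p = 0.0139, passing in 7 of 10 leave-one-out fits). Another Spry2 probe set, whose mean lay under the limit in Cre+ LSEC, had a bed difference of -0.37 in Cre+ cells (adjusted p = 0.221) and a genotype difference of -0.02. Irs2, the insulin receptor substrate, was low in LSEC of both genotypes, with -3.80 in Cre+ and -2.91 in control cells.

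Several genes more positive in Cre+ cells were lowest in control LSEC. Il6, an inflammatory cytokine, read 8.45, 8.76 and 7.53 in Cre+ LSEC, against 6.21 and 7.0 in Cre+ lung. In controls it read 4.22, 4.25 and 4.49 in LSEC, against 7.54 and 6.81 in lung. It was the only gene called in both genotypes with opposite direction, 1.65 in Cre+ and -2.85 in control cells (genotype difference 4.50, SE 0.70, adjusted p = 0.0198). Its Cre+ call was lost without Cre+ LSEC replicate 2 (1.39, adjusted p = 0.0607) or Cre+ lung replicate 1 (1.25, adjusted p = 0.161), and its genotype difference passed in 6 of the 10 fits that left out an array.

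Cd9, a tetraspanin, read 10.94, 10.41 and 10.47 in Cre+ LSEC, against 10.94 and 10.98 in Cre+ lung, and 8.73, 8.47 and 8.5 in control LSEC, against 11.04 and 11.08 in control lung. The bed difference was -0.35 in Cre+ cells, which was not called, and -2.50 in control cells (genotype difference 2.15, SE 0.22, adjusted p = 0.00312). Mcam, the adhesion molecule CD146, read 10.72, 10.03 and 10.10 in Cre+ LSEC, against 9.62 and 9.80 in Cre+ lung, and 8.45, 8.35 and 8.01 in control LSEC, against 10.70 and 10.19 in control lung (2.75, adjusted p = 0.0071). Foxc2, a forkhead factor of lymphatic valves, differed by 0.36 in Cre+ and -1.82 in control cells (2.18, adjusted p = 0.0189). Mcam passed in 8 and Foxc2 in 7 of the 10 leave-one-out fits, and both were lost without Cre+ or control lung replicate 1.

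Sema3g, an arterial semaphorin, Aplnr, the apelin receptor, and Plac8 were called lower in LSEC of both genotypes, with bed differences of -2.28, -2.10 and -1.75 in Cre+ and -4.57, -4.17 and -3.94 in control cells. They passed in 4, 1 and 5 of the 10 leave-one-out fits. For Sema3g and Aplnr the lung levels were also lower in Cre+ cells, with Aplnr at 6.26 and 6.14 in Cre+ lung, against 8.76 and 8.47 in control lung. Both genes lay under the filter limit in LSEC of both genotypes, and Aplnr also in Cre+ lung. Tcim changed side, and differed by 0.91 in Cre+ and -1.06 in control cells and passed in 5 of 10. Cyp4b1, a fatty acid hydroxylase, was called higher in LSEC of both genotypes, by 1.64 and 2.90 (genotype difference -1.25, adjusted p = 0.041), and passed in 1 of 10.

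The 250 bases before the start of each gene were searched in RefSeq (build GRCm38.p6) for the forkhead core GTAAACA and the GATA letters AGATAA, on both strands. The forkhead core stood in 2 of the 60 genes with a promoter among the 80, 3.33%, beside 2.87% of the tested genes with a promoter and 3.54% of all. It stood in 3.71% of the genes called higher and 3.96% of those called lower in Cre+ LSEC. The GATA letters stood in 10.3% of those called higher, 7.93% of those called lower and 7.61% of the tested genes, and in 3 of the 60, 5.0%. The 2 promoters with the forkhead core are printed because they are the matches among the genes that differed between genotypes, and that of Pdk4 because it is a FoxO target with the GATA letters and without the forkhead core in this window. Each is written 5′ to 3′ on the strand of the gene, with the match in capitals.
Gfpt2, chr11:49793910-49794006, plus strand: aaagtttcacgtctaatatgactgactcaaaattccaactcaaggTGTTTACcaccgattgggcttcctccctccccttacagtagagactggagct
Tmem140, chr6:34862985-34863081, plus strand: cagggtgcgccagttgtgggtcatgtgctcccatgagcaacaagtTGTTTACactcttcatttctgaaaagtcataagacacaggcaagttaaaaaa
Pdk4, chr6:5496289-5496384, minus strand: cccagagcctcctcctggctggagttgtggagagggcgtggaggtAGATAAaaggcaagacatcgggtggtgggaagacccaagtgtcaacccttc

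In Gfpt2 and Tmem140 the capitals are the reverse complement of the core. Gfpt2, an enzyme of the hexosamine pathway, had a bed difference of -1.57 in Cre+ and -0.03 in control cells (adjusted p = 0.0411), and it passed in 0 of the 10 leave-one-out fits. Tmem140, a membrane protein gene, had 0.16 in Cre+ and 1.73 in control cells (adjusted p = 0.00901), and passed in 8. A match is a description of the letters and does not show binding.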

How the data were processed

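Expression was measured on 14 arrays, 5 of them in the comparison reported. For each array the authors deposited values of 45101 probe sets, which are taken as log2 from their range of 0 to 13.83. How the authors summarized and normalized them is not given in the sources used here. Exact zeros number 223 to 312 per array. Array medians lay between 6.753 and 7.035, and arrays were quantile normalized. Besides 64 array controls, the platform annotation gave 1 gene symbol to 34945 probe sets, several to 932 and none to 9160, and 34741 of the 1-symbol probe sets matched the mouse gene table of GRCm38.p6. A gene is its brightest 1-symbol probe set, and 13035 of 18193 genes were tested.

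One model of 6 group means over all 14 arrays was fitted with limma 3.58.1 in R 4.3.3 (8 residual and 3.21 prior degrees of freedom), with two-sided tests and Benjamini-Hochberg adjustment within each contrast. FoxO probe sets were adjusted over all named probe sets, without the filter, apart from Foxo4, for which the values over genes are given. The test was checked on simulated data. For arrays, their number limits the precision. No batch is given in the labels.

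The comparison and the 46 gene lists were chosen with earlier results of these data known, so the lists are described by counts and medians with no test. Genes named were the FoxO genes, the 15 largest differences in each direction among called genes whose arrays do not overlap, up to 3 called members of each role or bed list in each direction, 2 of each list of other cells, the 8 largest differences between genotypes in each direction, and genes called with opposite sign. Dnase1l3, Mrc1, Clec4g, Fcgr2b, Gadd45a, Pecam1, Alb, Mcm2, Mcm3, Gfpt2, Tmem140, Egr1, Btg2 and Cdkn2b were named after their values were seen. Alternatives were other normalizations, filters, probe set rules and spread estimates, a replicate block, fewer samples in the fit, and leaving out each array.

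Same-numbered Cre+ LSEC and lung arrays did not deviate together (correlations of -0.0141 and 0.00962). For same-numbered control arrays the correlations were 0.126 and -0.0041. Control LSEC replicate 3, which has no partner of its number, stood at -0.108 and 0.108 with control lung replicates 1 and 2.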

Additional observations from a re-analysis of the deposited data

Results flagged for a closer look

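The bed difference differed between the genotypes, by the test of that difference in limma, in 26 of the genes named and also in Cdkn2b (-1.90). The value given is the Cre+ minus the control bed difference in log2 units. It was negative in Sema3d (-3.42), Lyve1 (-3.37), Fmo1 (-3.35), Pdk4 (-2.49), Angpt2 (-2.31), Slc10a6 (-2.17), Arg2 (-2.16), Mmd (-2.14), Fcgr2b (-2.04), Egr1 (-1.90), Clec4g (-1.83), Gadd45a (-1.69), Tmem140 (-1.57), Gfpt2 (-1.53), Wnt2 (-1.41), Spry2 (-1.38), Cyp4b1 (-1.25) and Btg2 (-1.02). It was positive in Il6 (4.50), Mcam (2.75), Sema3g (2.28), Plac8 (2.19), Foxc2 (2.18), Cd9 (2.15), Aplnr (2.07) and Tcim (1.97). Groups of 2 or 3 arrays are too small for a search for single outlying arrays.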

How the results depend on the processing

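The count of genes called between the Cre+ beds was 1369, and between the control beds 1469. Without a fold limit these were 5748 and 6011. Leaving out each array in turn gave 1268 to 1445 and 1393 to 1515, and under the other alternatives run both counts stayed within 1.5 times. The count of genes whose bed difference differed between genotypes was less stable. It was 80, against 30 with no filter, 125 with trend and robust on, 168 with array weights, 38 in a fit of only the 10 endothelial arrays, and 4 to 97 when each array was left out in turn (4 without Cre+ lung replicate 1, 5 without control lung replicate 1). With no filter 18193 genes are tested. With the replicate number as a block it was 27, and the block gave 1325 and 1518 calls for the Cre+ and control beds; the numbers are not known to pair samples, and LSEC replicate 3 has no lung partner. The cause of these shifts was not tested. Of the 146 named genes called between the Cre+ beds, 11 no longer had an adjusted p under 0.05 in at least 1 alternative run gene by gene, and none reversed. They were C1qa, Cd5l, Cxcr4, F3, Gimap9, Gja4, Il6, Krt7, Ptgs2, Rspo3 and Sox9. The alternatives run gene by gene were other normalizations, trend and robust, only the arrays compared, the replicate block and leaving out each Cre+ array. Other filters, other probe set rules and array weights were compared by counts only. A fall below 2-fold alone was not counted here, so further genes close to that limit may have lost the call. Of 54 called genes with another probe set above the limit, all such probe sets had the same sign in 50. That count takes no account of size, and some of these probe sets hardly differed between the beds, such as 1 of Jag1 (0.03) and 1 of Cdh5 (0.11). Limits are the small groups, lung samples with epithelial and fibroblast signal, and levels in the dim range in 40.2% of calls.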
